A study of Homo sapiens with 9 samples.

Results

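Control MEL624 cells, a human melanoma line carrying a random guide RNA on a wild-type background, were profiled by precision run-on sequencing (PRO-seq). The set described here is the control group alone, 3 of the 9 samples of the series, and the other samples were not analysed here. The cells were grown in serum-supplemented DMEM, permeabilized, and allowed to extend their nascent RNA. All 57754 genes with a GENCODE gene type were taken, of 58336 identifiers listed, and 41885 of them had a symbol other than the identifier. The deposited table holds 1 value per gene, the mean of the 3 control replicates as a normalized count per kb of gene length, rounded to 0.01. No spread between replicates can therefore be given, no test was possible, and every comparison below is a description of 1 mean. The labels do not say whether the line was a clone or a pool.

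Run-on assays record polymerases caught in the act of copying DNA, so a value measures ongoing transcription at a gene and not the amount of finished RNA. Melanocytes arise from the neural crest, and their pigment program is run mainly by MITF with SOX10 and PAX3, which act on enzymes and structural proteins of the melanosome. Melanoma cells can hold that program or leave it for a dedifferentiated state marked by AXL, AP-1 and YAP/TEAD target genes.

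The value per kb, called signal per kb, was used whenever genes were compared with each other. Multiplied by length it gives a mean normalized count, which was used as a floor: a gene with at least 10 counts is called transcribed, and a gene with less is either above 0 or listed at 0. Of all 57754 genes, 29.4% were at or above that floor. Of 19773 protein-coding genes, 63.0% were at the floor (12462 genes), 3168 lay between 0 and the floor, and 21.0% were listed at 0 (4143 genes). Over all protein-coding genes the median signal per kb was 11.42, and over those at the floor it was 29.34, with a 5th percentile of 3.70 and a 95th percentile of 165.55. The depth of single libraries is unknown from this table. The counts summed to 3760730 over all rows, a total that the authors' scaling sets.

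A value listed at 0 is not evidence that a gene was silent. The RNA components of essential complexes RN7SK, RN7SL1, RMRP and RPPH1, chosen after their values were seen, were all listed at 0, although every human cell uses them. All exon bases of RN7SK and RPPH1 lie inside another gene on the same strand, but none of RN7SL1 and RMRP do, and RN7SL2 and VTRNA1-1 had 700.5 and 229.3 counts with all exon bases shared. Among protein-coding genes whose exon bases were all shared on the same strand, 221 of 237 (93.2%) were listed at 0, against 21.1% of 16156 genes with no such sharing. Exons shared only with the opposite strand went with no such excess: of 177 genes with no same-strand sharing and at least 50% antisense overlap, 21.5% were listed at 0. EIF3C, a subunit of the initiation factor that recruits the ribosome, was at 0.31 per kb, and its near-identical copy EIF3CL was listed at 0. Other genes with close copies were high, such as RN7SL2 with 2335.00 per kb.

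Promoter sequences of genes at both ends of the scale are shown first because promoter make-up differed with transcription level. They are the 100 bases before the GENCODE release 44 canonical start, read 5′ to 3′ from hg38. Capitals mark TATAAA within 45 to 15 bases before the start on the gene's strand, and the CCAAT box, the SP1-type GGGCGG box and the E-box CATGTG on either strand. On the opposite strand CCAAT reads ATTGG and GGGCGG reads CCGCCC. The genes shown were chosen after their values were seen. H2BC21, the histone gene with the highest count, encodes histone H2B (chr1:149886683-149886782, minus strand). DUSP1 encodes a phosphatase that turns off MAP kinases (chr5:172771196-172771295, minus strand). CCN2 encodes a matricellular growth factor (chr6:131951373-131951472, minus strand).
H2BC21: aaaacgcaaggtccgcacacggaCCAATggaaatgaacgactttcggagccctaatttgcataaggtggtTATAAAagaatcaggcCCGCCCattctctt
DUSP1: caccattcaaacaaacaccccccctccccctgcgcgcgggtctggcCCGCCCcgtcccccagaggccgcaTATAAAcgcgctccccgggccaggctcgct
CCN2: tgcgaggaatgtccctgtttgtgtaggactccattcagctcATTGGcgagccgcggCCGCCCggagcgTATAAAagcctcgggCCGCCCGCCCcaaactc
These promoters hold TATAAA beginning 30, 30 and 32 bases before the start, and the signal per kb of their genes was 3140.88, 950.62 and 931.83. POLR2A, the largest subunit of RNA polymerase II (chr17:7484266-7484365, plus strand), and NDUFB10, a subunit of respiratory complex I (chr16:1959438-1959537, plus strand), are CpG-rich and have no TATAAA in that window.
POLR2A: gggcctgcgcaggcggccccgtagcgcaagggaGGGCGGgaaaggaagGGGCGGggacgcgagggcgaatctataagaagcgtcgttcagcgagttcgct
NDUFB10: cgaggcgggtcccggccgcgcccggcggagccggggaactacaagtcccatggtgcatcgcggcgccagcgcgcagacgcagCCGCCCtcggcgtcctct
Within 300 bases around the start these promoters hold 28 and 39 CpG, and the signal per kb was 285.19 for POLR2A and 433.69 for NDUFB10. Promoters of the tyrosinase gene TYR (chr11:89177775-89177874, plus strand) and the basal keratin gene KRT5 (chr12:52520395-52520494, minus strand) belong to genes listed at 0.
TYR: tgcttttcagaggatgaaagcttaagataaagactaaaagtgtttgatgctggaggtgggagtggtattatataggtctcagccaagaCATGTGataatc
KRT5: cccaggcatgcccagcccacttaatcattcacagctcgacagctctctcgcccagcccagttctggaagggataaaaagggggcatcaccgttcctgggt
They hold 2 and 7 CpG in the same 300 bases. The TYR promoter has CATGTG, an E-box form that MITF can bind, 12 bases before its start.

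Across all 19715 nuclear protein-coding genes, CpG-rich promoters went with transcription. At least 15 CpG in the window from 250 bases before to 50 after the start were found in 30.2% of promoters of genes listed at 0, in 45.9% of those above 0 and under the floor, and in 73.1%, 87.5%, 91.3% and 92.0% of successive classes of genes at the floor up to 162.63 per kb. The class above that, the 623 genes from 162.77 per kb upwards, had 86.4%. Without histone genes that class had 91.45%, and the 58 histone genes at the floor had 29.3%. TATAAA was common at both extremes, with 8.83% of promoters listed at 0, between 0.77% and 1.90% in the classes between the floor and 162.63 per kb, and 15.1% in the highest class, against 4.0% of all promoters. Histone genes carried part of the upper end: 53.4% of the 58 histone genes at the floor had TATAAA, and without histone genes the highest class had 11.5%. The ETS core CCGGAA was found in 9.61% of promoters listed at 0 and 38.4% of those from 55.1 to 162.63 per kb, against 22.8% of all. CATGTG went the other way, from 12.2% at 0 to 3.21% in the highest class, against 8.15% of all. The CCAAT box was found in 36.1% of all promoters and the GGGCGG box in 61.5%. Among other motifs searched, the E-box CACGTG was in 8.81% of all promoters, the TEAD core GGAATG in 11.3%, the AP-1 element TGANTCA in 5.43% and the full cAMP response element, an 8-base palindrome, in 2.69%. Motifs other than TATAAA were searched on both strands, and a match is a description of letters, not of a bound factor.

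**Figure D1:**
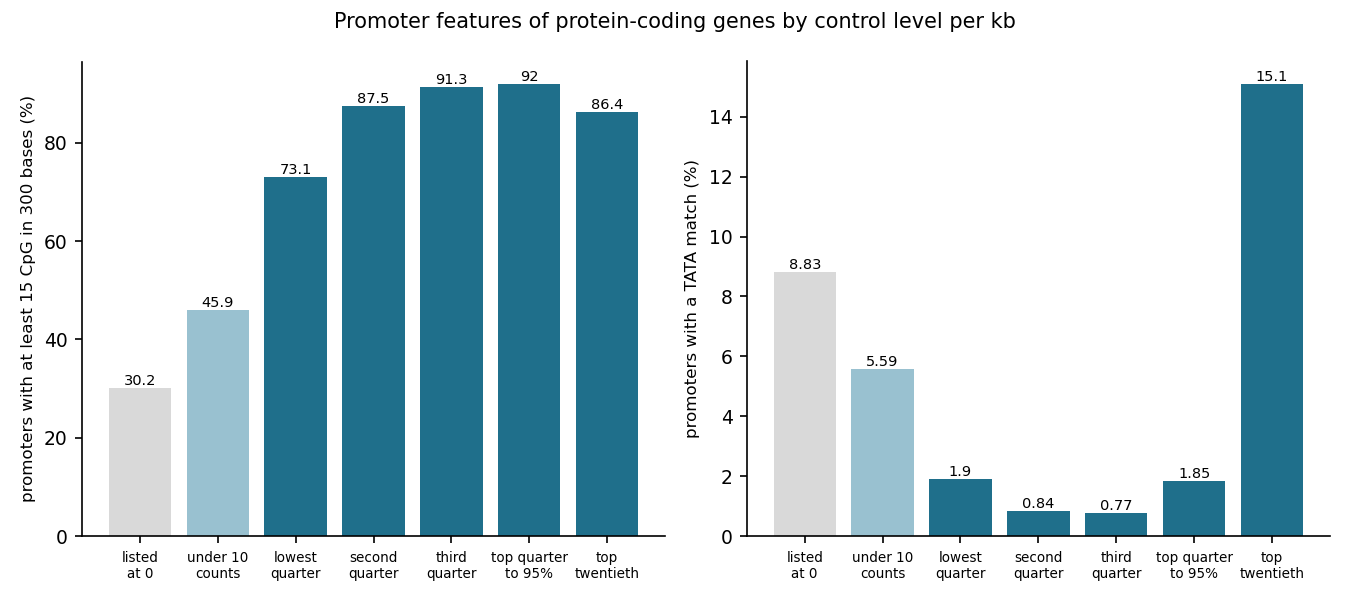
Left: percentage of protein-coding genes whose promoter (300 bases) holds at least 15 CpG; right: percentage with TATAAA within 45 to 15 bases before the start. Bars are classes of control signal per kb, from genes listed at 0 to the highest genes at the floor. CpG-rich promoters rose from 30.2% to 92.0% before 86.4% in the highest class (91.45% without histone genes, not drawn). TATAAA was highest at both ends (8.83% and 15.1%).

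Transcription was concentrated in few genes. Protein-coding genes held 84.8% of the summed counts, long noncoding RNA (lncRNA) genes 9.60% and the mitochondrial genome 2.82%. Within the protein-coding sum, 1709 genes held 50%, and the 198 highest genes held 16.9%. Of the 14367 lncRNA genes, 22.2% were at the floor (3196 genes), and 7250 were listed at 0. Pseudogenes of all types reached the floor in 715 of 15087 cases. Immunoglobulin and T cell receptor segments, which are transcribed in lymphocytes, reached it in 7 of 646.

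**Figure D2:**
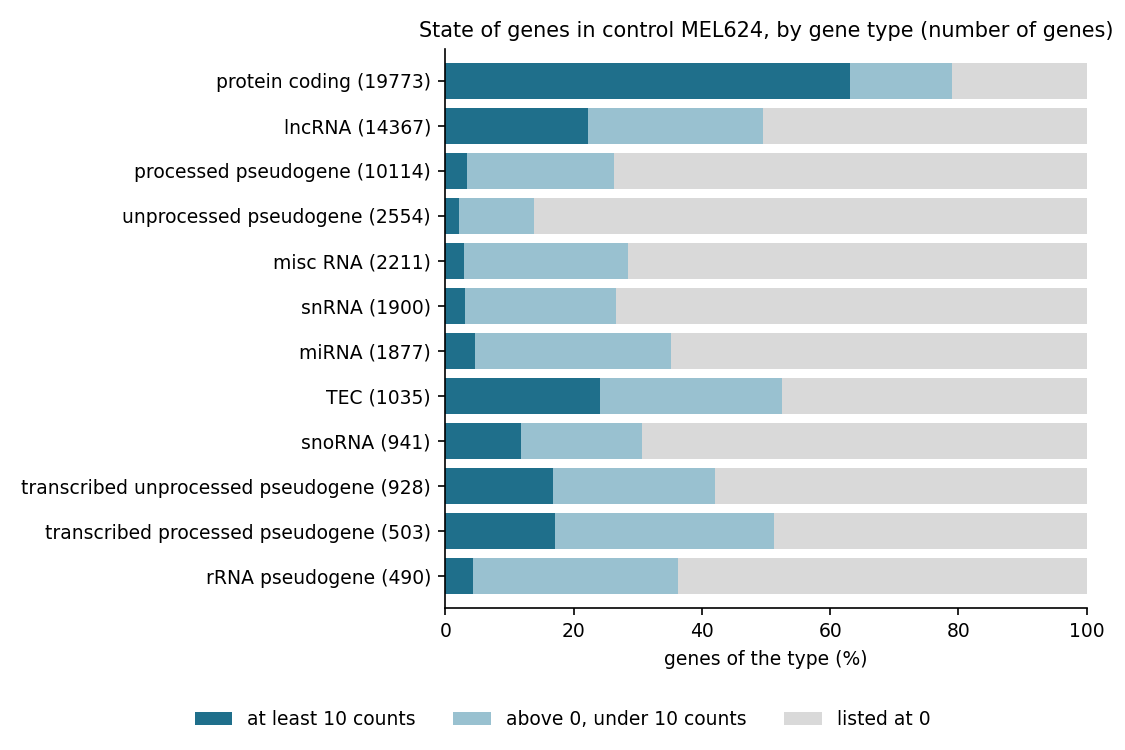
Each bar is a GENCODE gene type with its number of genes, split by percentage into genes with at least 10 mean normalized counts, genes above 0 and under 10, and genes listed at 0. Protein-coding genes had 63.0% at the floor and lncRNA genes 22.2%, and the pseudogene types shown had less than lncRNA genes; smaller types, such as the 150 transcribed unitary pseudogenes with 28.7%, are not drawn.

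Histone genes led the protein-coding genes in signal per kb. H1-2, a linker histone that binds DNA between nucleosomes, had the highest value among genes of at least 0.5 kb, 5794.37 per kb. The core histone gene H2AC25 stood at 4010.29 per kb and the linker histone gene H1-4 at 3682.04 per kb. Among the shorter histone genes, H2AC12 reached 7684.44 per kb and H2AC20 6250.22 per kb. In all, 58 of 75 histone genes were at the floor, with a family median of 840.49 per kb against 11.42 for all protein-coding genes. Another 13 were listed at 0, among them H3C14 and H3C15, a near-identical pair chosen after their values were seen, whose values are uncertain. Of the 100 protein-coding genes highest per kb among those with at least 10 counts and at least 0.5 kb of counted length, 22 were histone genes, 18 ribosomal protein genes and 9 immediate early genes. Another 7 lie in the mitochondrial genome, where MT-ND1, a complex I subunit, stood at 5002.00 per kb and MT-CYB, cytochrome b of complex III, at 3620.62 per kb. Mitochondrial genes are read by a separate polymerase.

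By mean normalized count, which favours long genes, the order was different. VMP1, a membrane protein of autophagy, had the highest count of any protein-coding gene, 7440.65, followed by H2BC21 with 6891.09 and PHLDA1, an early response gene of MAP kinase signalling, with 5901.10. The RNA helicase gene DDX5 had 5833.05 counts and the translation elongation factor gene EEF1A1 5258.57. The intermediate filament gene VIM, typical of mesenchymal cells, had 4717.15 counts and the AP-1 gene JUN 4632.66. Among noncoding genes, the mitochondrial ribosomal RNA aside, NEAT1, the scaffold of nuclear paraspeckles, had 14111.67 counts and MALAT1, a nuclear speckle RNA, 12734.33. The snoRNA host genes GAS5, SNHG1 and SNHG3 were at 7202.92, 6159.76 and 5332.22 counts. In signal per kb GAS5 stood at 1983.73, MALAT1 at 1442.33 and NEAT1 at 619.83. SAMMSON, a lncRNA of the MITF locus region in melanoma, was at 60.73 per kb, while BANCR, H19 and MEG3 were listed at 0. These 4 were named after their values were seen.

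Several highly transcribed genes contain microRNAs. The mature sequences from RefSeq are shown with the seed (bases 2 to 8) in capitals, because the seed sets which mRNAs a microRNA can pair with. VMP1 spans miR-21, and MIR222HG spans miR-221 and miR-222, which share a seed. MIR17HG carries the miR-17 cluster, of which miR-17 and miR-20a share a seed, and MIR22HG and MIR31HG carry miR-22 and miR-31.
miR-21-5p: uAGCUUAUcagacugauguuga
miR-221-3p: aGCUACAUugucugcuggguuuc
miR-222-3p: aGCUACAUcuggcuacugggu
miR-17-5p: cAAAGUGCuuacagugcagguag
miR-20a-5p: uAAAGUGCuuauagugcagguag
miR-22-3p: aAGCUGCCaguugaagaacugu
miR-31-5p: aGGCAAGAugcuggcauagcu
The host genes stood at 1075.86 per kb for VMP1, 550.20 for MIR222HG, 364.85 for MIR22HG, 350.51 for MIR31HG and 256.92 for MIR17HG. Levels of the mature microRNAs were not measured. These hosts were chosen after their values were seen.

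Of 10 melanocyte transcription factor genes, 6 were at the floor (60.0%), near the 63.0% of all protein-coding genes, with a list median of 9.29 per kb. TFAP2A, an AP-2 factor of the neural crest, was the highest at 78.82 per kb (652.2 counts). MITF, the factor that drives pigment genes, stood at 23.47 per kb (168.5 counts) and its relative TFE3 at 37.15 per kb. PAX3, which acts on MITF, was at 19.19 per kb, and LEF1, a WNT effector, at 16.27 per kb. TFEB reached 2.31 per kb and IRF4, a pigmentation factor, 0.18 per kb. SOX10, TFAP2B and TFEC were listed at 0. No exon base of SOX10 is shared on the same strand, and 5.4% are shared with the opposite strand.

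Of 24 pigment and melanosome genes, 16 were at the floor (66.7%), near the 63.0% of all protein-coding genes, 5 were above 0 and under it, and 3 were listed at 0. TYR, which starts melanin synthesis, the transporter gene SLC24A5 and OCA2, which sets melanosome pH, were listed at 0. DCT and TYRP1, the enzymes after tyrosinase, had 0.05 and 0.89 per kb, both under the floor. MLANA, the melanocyte antigen MART-1, had 0.11 per kb, GPR143 0.72 and TRPM1 0.09. PMEL, the fibril protein of the melanosome also known as gp100, was at 12.41 per kb (48.4 counts), close to the median of all protein-coding genes, and SLC45A2, a melanosome transporter gene, had 3.23. RAB32 and RAB38, GTPases that carry cargo to melanosomes, had 68.43 and 8.03 per kb, and RAB27A had 7.93. CD63, GPNMB and MLPH stood at 52.91, 38.10 and 28.64 per kb, SYTL2 at 23.73, TSPAN10 at 20.97, BACE2 at 18.99, and the transport motor gene MYO5A at 15.71. HPS4, LYST and TPCN2 had 14.23, 8.38 and 8.03 per kb, and the copper pump gene ATP7A 1.09. The share at the floor fell to 58.3% with 5 per kb and to 45.8% with 50 counts. Several of the transport genes are also active in cells without pigment. Set against the labelled melanoma origin, the markers were divided: TYR, DCT, TYRP1, MLANA and SOX10 were at 0 or under the floor, while PMEL, SLC45A2, MITF and PAX3 were at the floor. Of the latter, PMEL with 48.4 counts was under the floor of 50 counts, and SLC45A2 with 3.23 was under that of 5 per kb.

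Melanocyte receptors and ligands were mostly low. MC1R, the melanocortin receptor, was at 25.38 per kb, but 40.2% of its exon bases are shared with another gene on the same strand, so its value is uncertain. The stem cell factor gene KITLG stood at 22.50 per kb and the endothelin gene EDN1 at 34.14 per kb. Their receptors KIT and EDNRB were at 0.06 and 1.17 per kb, and ERBB3 at 3.04 per kb. POMC, ASIP and EDN3 were listed at 0. Of these 9 genes, 4 were at the floor (44.4%, below the 63.0% of all protein-coding genes).

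Neural crest and glial markers were split. TFAP2C, an AP-2 factor, stood at 201.21 per kb, SOX9 at 114.75 and the forkhead gene FOXD1 at 96.23. L1CAM had 21.70 per kb, SOX2 13.84, the neurotrophin receptor gene NGFR 7.05 and NCAM1 6.62. The Schwann and melanoma markers S100B and S100A1 had 0.50 and 0.97 per kb, and MBP, GAP43 and NES had 0.31, 1.90 and 1.13. FOXD3, GFRA3 and CDH19 had 2.82, 3.53 and 0.33 per kb, and GFRA2 and RXRG were listed at 0. In all, 8 of 19 were at the floor (42.1%, below the 63.0% of all protein-coding genes).

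The listed genes of the dedifferentiated melanoma state were transcribed throughout. All 27 members were at the floor, against 63.0% of all protein-coding genes. Their median was 48.98 per kb, and 13 were among the highest 10% of protein-coding genes. Like the other lists, this one was chosen with earlier results of these data known, so its share is not independent of that choice. The AP-1 gene FOSL1 was at 1380.73 per kb (2605 counts), and the YAP/TEAD targets CCN1 and CCN2 at 1241.93 and 931.83 per kb. THBS1, a matricellular protein, had 394.28 per kb, SNAI1 389.97, the hyaluronan receptor gene CD44 196.46 and the receptor kinase gene AXL 183.03. SMAD3, which carries TGF-β signals, stood at 161.01 per kb, SOX9 at 114.75, TEAD4 at 107.97, NT5E at 106.08 and TWIST1 at 98.77. The activin gene INHBA was at 85.84 per kb, LOXL2 at 48.98, TGFBR2 at 40.63, EGFR at 33.50, TEAD1 at 27.52 and ZEB1 at 26.44. TGFB1 had 20.79 per kb, with TNC just under it, TGFBI 19.08, WNT5A 15.59, PDGFRB 15.51, NGFR 7.05, F2RL1 6.26 and TGFB2 2.45. Of the transcription factors of epithelial to mesenchymal transition, 6 of 6 were at the floor, SNAI1 being the highest and ZEB2 the lowest, at 15.78 per kb; TWIST2 and SNAI2 had 44.75 and 37.14 per kb.

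**Figure D3:**
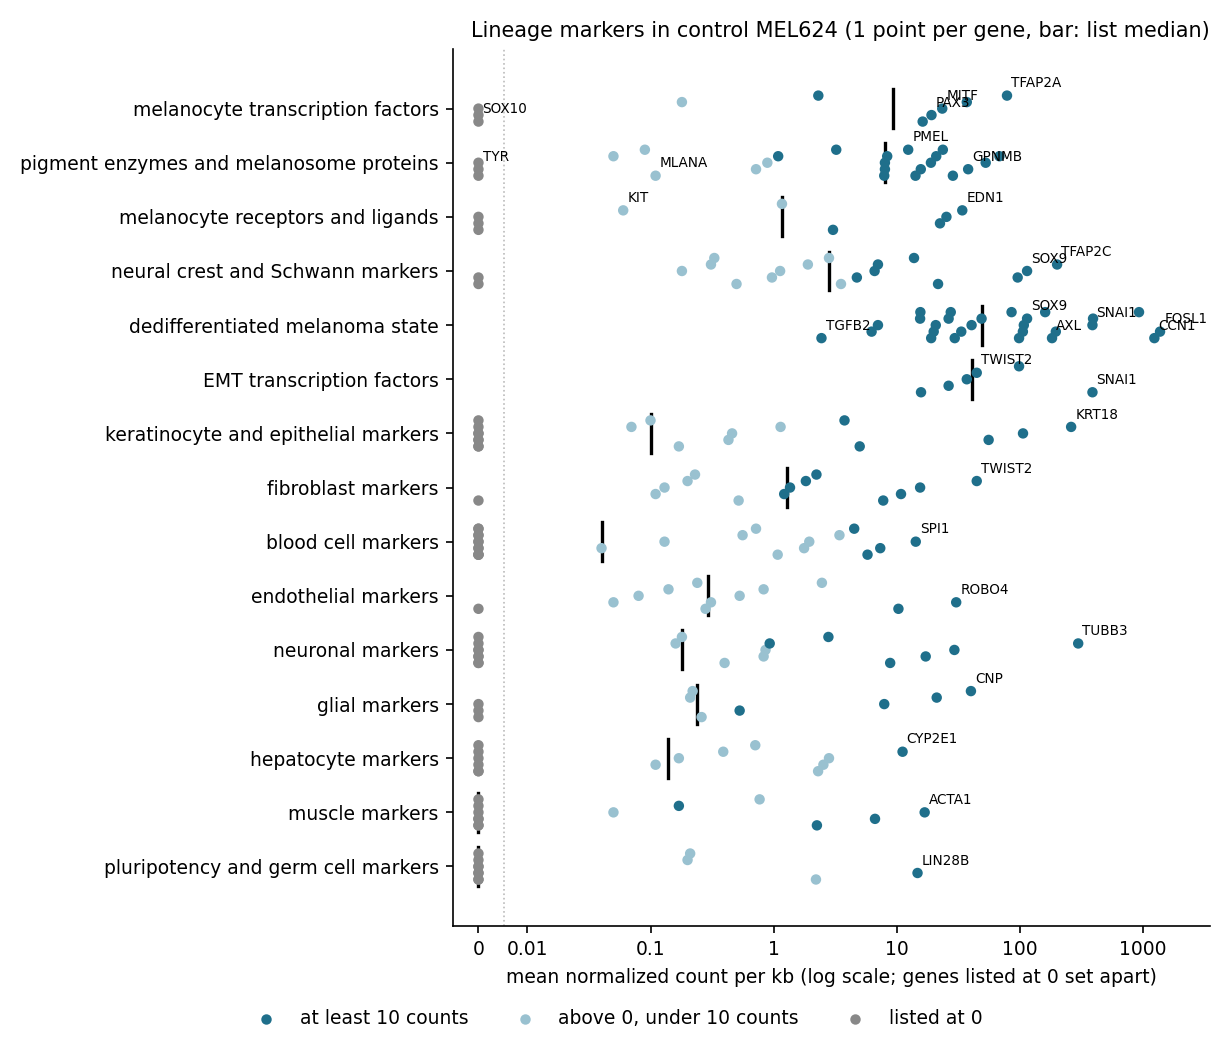
Each point is a gene of a lineage or cell type list, placed by its mean normalized count per kb in control on a log axis, with genes listed at 0 set apart on the left; colour gives the floor of 10 counts and the black bar the list median. All 27 listed dedifferentiated-state genes, chosen with earlier results of these data known, lie at the floor with a median of 48.98 per kb. SOX10 and TYR are listed at 0 and MLANA is at 0.11.

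Markers of other cell types were mostly low. Every such list had a smaller share at the floor than the 63.0% of all protein-coding genes, from 7.14% (hepatocyte) to 57.1% (fibroblast). The cells of the line were measured in bulk, so fewer transcribing cells and less transcription per cell cannot be told apart. Blood markers had 4 of 23 genes at the floor and 11 listed at 0, with PTPRC, the leukocyte surface phosphatase, at 0.04 per kb and the highest, SPI1, at 14.30. Endothelial markers had 2 of 12, ROBO4 at 30.47 and TIE1 at 10.34 per kb, with CLDN5 at 0. Hepatocyte markers had 1 of 14, CYP2E1 at 11.17 per kb, with 6 at 0. Pluripotency and germ cell markers had 1 of 12, the let-7 inhibitor gene LIN28B at 14.78 per kb, with 8 at 0. Muscle markers had 4 of 13, the highest ACTA1 at 16.89 per kb, with 7 at 0.

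Keratin genes differed within the keratinocyte and epithelial list. The simple epithelial keratin gene KRT18 and its partner KRT8 were at 261.69 and 55.90 per kb, and KRT10, a keratin of the upper epidermis, at 106.35. The basal keratin genes KRT5 and KRT14 and the simple epithelial KRT19, chosen after their values were seen, were listed at 0, and DSG3 and TP63 had 0.07 and 0.10 per kb. In all, 5 of 19 keratinocyte and epithelial markers were at the floor and 8 were listed at 0. Neuronal markers had 6 of 19 at the floor, led by TUBB3, a β-tubulin also found in dividing cells of many tumours, at 298.66 per kb, with SNAP25, SYT1 and GAD1 at 29.46, 17.22 and 8.86 per kb and 8 at 0. Glial markers had 4 of 10, led by CNP at 40.14 and SLC1A3 at 21.16 per kb. GFAP and SLC1A2 were at the floor with 7.93 and 0.53 per kb, and AQP4, OLIG1 and OLIG2 were listed at 0. Fibroblast markers had 8 of 14 at the floor (57.1%, near the 63.0% of all protein-coding genes) but a median of 1.29 per kb. TWIST2 stood at 44.75 per kb, PDGFRB at 15.51, THY1 at 10.85 and MMP2 at 7.78. FBLN1, COL1A1, PDGFRA and COL5A1 were at the floor with 2.23, 1.83, 1.36 and 1.22 per kb. The collagen genes COL1A2 and COL3A1 had 0.13 and 0.11 per kb, and DCN was listed at 0.

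Melanoma driver and suppressor genes were nearly all transcribed, 37 of 39 at the floor (94.9%, against 63.0% of all protein-coding genes). Their median was 36.57 per kb. The cell cycle genes CCND1 and CDKN1A were the highest at 393.04 and 314.31 per kb, followed by the helicase gene DDX3X at 158.74. PIK3CA had 4.63 per kb. CDKN2B, a cyclin-dependent kinase inhibitor gene of chromosome 9p21, was listed at 0 and KIT had 0.06 per kb. Of 12 genes of the CDKN2A region on chromosome 9p, 7 were at the floor (58.3%, near the 63.0% of all protein-coding genes). MTAP stood at 63.23 per kb, IFNE at 50.34, KLHL9 at 41.80 and FOCAD at 25.49. ELAVL2 and IFNB1 had 0.43 and 0.40 per kb, CDKN2B-AS1 1.17, and IFNA1 was listed at 0. IFNE lies within the span of MIR31HG on the same strand, so its value is uncertain. CDKN2A, chosen after its value was seen, had 19.18 per kb, and 15.3% of its exon bases are shared with the opposite strand. TERT, the catalytic subunit of telomerase, was the lowest of 11 telomere genes at 5.67 per kb (26.2 counts), and 11 of 11 were at the floor.

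Genes that report MAP kinase signalling were high. All 20 MAPK output genes were at the floor, with a median of 108.90 per kb: the survival gene IER3 at 1792.21, FOSL1 at 1380.73, PHLDA1 at 731.33 and the ERK phosphatase gene DUSP6 at 664.19 led, and SPRED2 and EPHA4 were the lowest at 22.59 and 11.42. Among immediate early genes, 24 of 26 were at the floor and the median was 353.24 per kb. IER3, JUN, CCN1 and JUND were the highest, at 1792.21, 1308.66, 1241.93 and 1222.74 per kb. EGR2 and EGR3 were the only members under the floor, at 0.39 and 0.58 per kb, and EGR1, chosen after its value was seen, was at 64.14. Promoters with at least 15 CpG were found for 26 of the 26, against 67.75% of all promoters and 86.4% in the highest class. TATAAA was found for 7, or 26.9%, against 4.0% of all promoters and 15.1% in the highest class. That class holds the genes from 162.77 per kb upwards.

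Receptor tyrosine kinase genes were at the floor in 34 of 54 cases (63.0%), the same share as over all protein-coding genes. Their median was lower, 3.13 per kb against 11.42 for all protein-coding genes. With 5 per kb as the floor the share was 46.3% against 58.5% of all protein-coding genes. With 50 counts it was 37.0% against 51.0%. EPHA2, AXL, the hepatocyte growth factor receptor gene MET and EGFR were the highest, at 192.80, 183.03, 92.29 and 33.50 per kb. NTRK3 and NTRK2 had 0.01 and 0.04 per kb, and ROR2, EPHA3 and EPHA8 were listed at 0. Among adhesion and surface genes 22 of 28 were at the floor, with CD44 at 196.46, the laminin receptor gene ITGA3 at 155.17, the melanoma adhesion molecule gene MCAM at 103.75 and ITGB1 at 54.70 per kb. ITGB3, the partner of the vitronectin receptor, was lowest at 0.08 per kb. Of 26 integrin genes 19 were at the floor and ITGA8 and ITGAM were listed at 0.

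Antigen presentation had 20 of 28 genes at the floor (71.4%, against 63.0% of all protein-coding genes), among which the chaperone gene CALR (1134.04 per kb), the light chain gene B2M (149.25), the loading enzyme gene PDIA3 (77.69) and HLA-E (71.17) were the highest. HLA-F and HLA-DMB had 0.50 and 0.25 per kb, and HLA-G, HLA-DRB1 and HLA-DQA1 were listed at 0. Some HLA genes are close in sequence to other HLA genes, and the values of those are uncertain. Of immune ligands and checkpoint genes, 17 of 26 were at the floor (65.4%, near that background), with LGALS1 at 1235.00 and TNFSF9 at 272.05 per kb, PVR at 131.99 and NT5E at 106.08. CD274, which encodes PD-L1, was chosen after its value was seen and had 79.93 per kb, and FASLG, ULBP1, CD80 and IDO1 were listed at 0. Interferon pathway genes had 30 of 36 at the floor (83.3%), but 50.0% at 50 counts, just below the 51.0% of all protein-coding genes there, with IRF1 at 122.39, IFI6 at 98.89 and MAVS at 64.17 per kb. CGAS, a DNA sensor, had 0.17 per kb, and IFNL1, RSAD2, BST2 and XAF1 were listed at 0. Cytokine and chemokine genes had 24 of 36 at the floor (66.7%) and 41.7% at 50 counts, with HBEGF at 226.80, VEGFC at 137.07, LIF at 102.05 and AREG at 101.03 per kb, and HGF at 0.04. Type I interferons had 1 of 17, IFNE, and 13 were listed at 0. IFNE lies within the span of MIR31HG on the same strand, which stood at 350.51 per kb. Whether the IFNE signal came from a polymerase passing through MIR31HG was not tested.

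Cancer-testis antigens, germ cell genes that tumours may switch on, were few. Of 28 genes, 8 were at the floor (28.6%, against 63.0% of all protein-coding genes) and 15 were listed at 0. MAGEA4 was the highest at 136.55 per kb (420.7 counts), with PAGE5 at 45.45, MAGEA12 at 26.61 and MAGEC2 at 25.41. MAGE genes of near-identical sequence are uncertain.

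Housekeeping and growth genes were transcribed almost completely. All 25 mitosis genes, 29 of 29 DNA replication genes, 21 of 21 glycolysis genes and 21 of 21 oxidative genes were at the floor, with list medians of 100.88, 56.84, 122.90 and 71.20 per kb. The mitotic kinase gene AURKB stood at 255.76, the replication clamp gene PCNA at 453.79 and the glycolytic gene GAPDH at 957.59 per kb. DNA repair genes had 36 of 37, and MGMT, which removes alkyl groups from guanine, was listed at 0. NRF2 and redox genes had 15 of 17, led by the peroxidase gene PRDX1 at 1299.78 per kb, with AKR1B10 and AKR1C1 at 0.42 and 0.30. Genes of the transcription machinery itself were all at the floor: 12 of 12 subunits of RNA polymerase II and 32 of 32 pausing and elongation factors, the highest of which was HEXIM1, an inhibitor of the elongation kinase, at 483.45 per kb. All 27 genes of the cap and m6A machinery were at the floor. The cap methyltransferase gene RNMT led at 175.17 per kb, and RNGTT and FTO were the lowest at 13.53 and 6.63.

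Families of the translation and respiration machinery were nearly complete. Cytosolic ribosomal protein genes had 83 of 86 at the floor and a median of 402.66 per kb, led by RPL41 at 2045.86 and RPS2 at 1732.18, and mitochondrial ribosomal proteins had 77 of 78 with a median of 52.53 per kb. Complex I had 37 of 37 and ATP synthase 17 of 17. Zinc finger genes, many of them repressors of transposons, had 438 of 508 at the floor, led by ZNF581 at 254.63 per kb. Laminins, proteins of the basement membrane, had 11 of 12, led by LAMB1 at 165.56 per kb. Other families had smaller shares than the 63.0% of all protein-coding genes. Collagens had 17 of 44 (38.6%). Solute carriers had 214 of 368 (58.2%), led by the amino acid transporter gene SLC38A2 at 675.16 per kb. Cytochrome P450 genes had 12 of 56 (21.4%), of which CYP27B1, which activates vitamin D, was highest at 154.05 per kb.

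Families of specialised tissues were nearly empty. Olfactory receptors had 6 of 415 genes at the floor and 351 listed at 0. The highest, OR2W3, stood at 15.32 per kb. Keratin-associated proteins of hair had 2 of 94, KRTAP2-3 at 65.84 and KRTAP4-8 at 10.48 per kb. Defensins had 0 of 46 and UDP-glucuronosyltransferases 0 of 19, and keratins had 8 of 55, among which KRT80 stood at 212.03 per kb. Bitter taste receptors had 12 of 24 at the floor, but 4.17% at 50 counts, led by TAS2R3 at 46.60 and TAS2R50 at 29.12 per kb. Of those 12 genes, 10 overlap the span of another protein-coding gene on either strand. Whether the signal came from a passing polymerase was not tested.

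**Figure D4:**
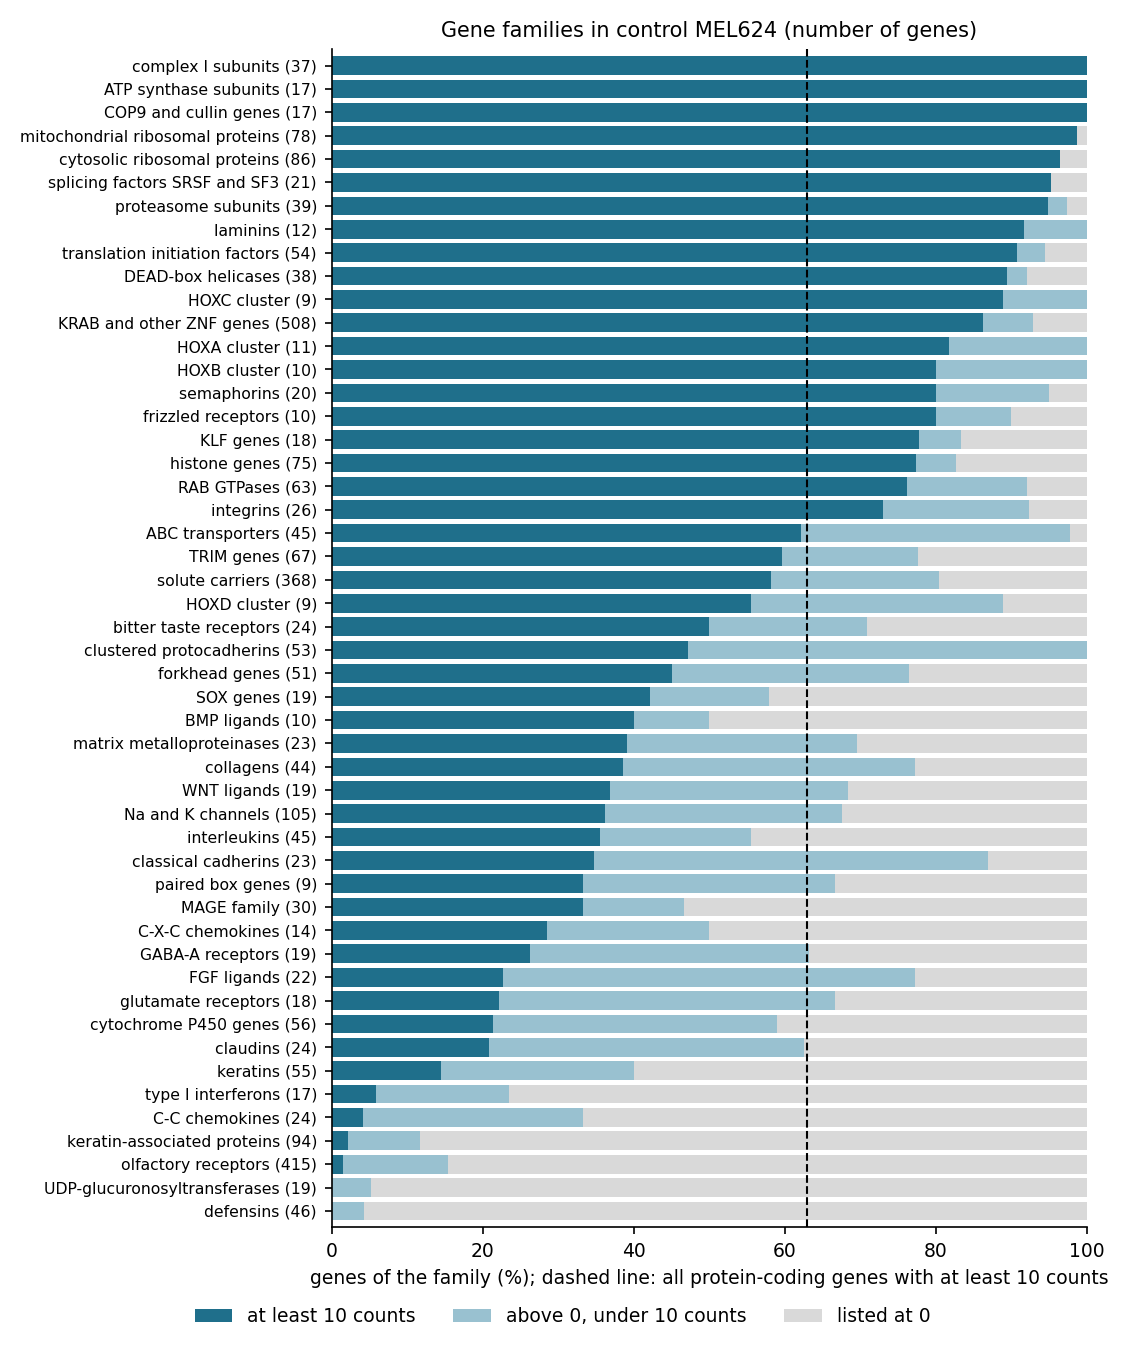
Each bar is a gene family of at least 9 genes (number in brackets), split by percentage into genes with at least 10 mean normalized counts, genes above 0 and under 10, and genes listed at 0; the dashed line is the 63.0% of all protein-coding genes. Complex I and ATP synthase genes fill the bar, and defensins and UDP-glucuronosyltransferases have none at the floor.

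The HOX genes, which set position along the body axis, had members at the floor in each of their 4 clusters. HOXA had 9 of 11 (81.8%), HOXB 8 of 10 (80.0%), HOXC 8 of 9 (88.9%) and HOXD 5 of 9 (55.6%). The share of all protein-coding genes was 63.0%. With a floor of 50 counts the share was 27.3% in HOXA, 80.0% in HOXB, 66.7% in HOXC and 11.1% in HOXD. Over all protein-coding genes it was 51.0% at that floor. With 5 per kb the share in HOXD was 33.3%, against 58.5% of all protein-coding genes. HOXB was the highest cluster, with a median of 79.36 per kb against 13.48 for HOXA, 40.56 for HOXC and 3.89 for HOXD. HOXB2 and HOXB6 stood at 247.19 and 201.63 per kb, HOXB9 at 114.16 and HOXB7 at 103.48. The ends of that cluster were low, with HOXB1 at 0.15 and HOXB13 at 2.67 per kb. In HOXA the highest were HOXA5 at 103.07 and HOXA10 at 38.67, and in HOXC it was HOXC9 at 75.70. In HOXD the highest was HOXD9 at 43.55, and HOXD4 was listed at 0. Of the genes at the floor, 8 in HOXA, 8 in HOXB, 8 in HOXC and 4 in HOXD overlap another gene on either strand, so single values may mix neighbours.

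**Figure D5:**
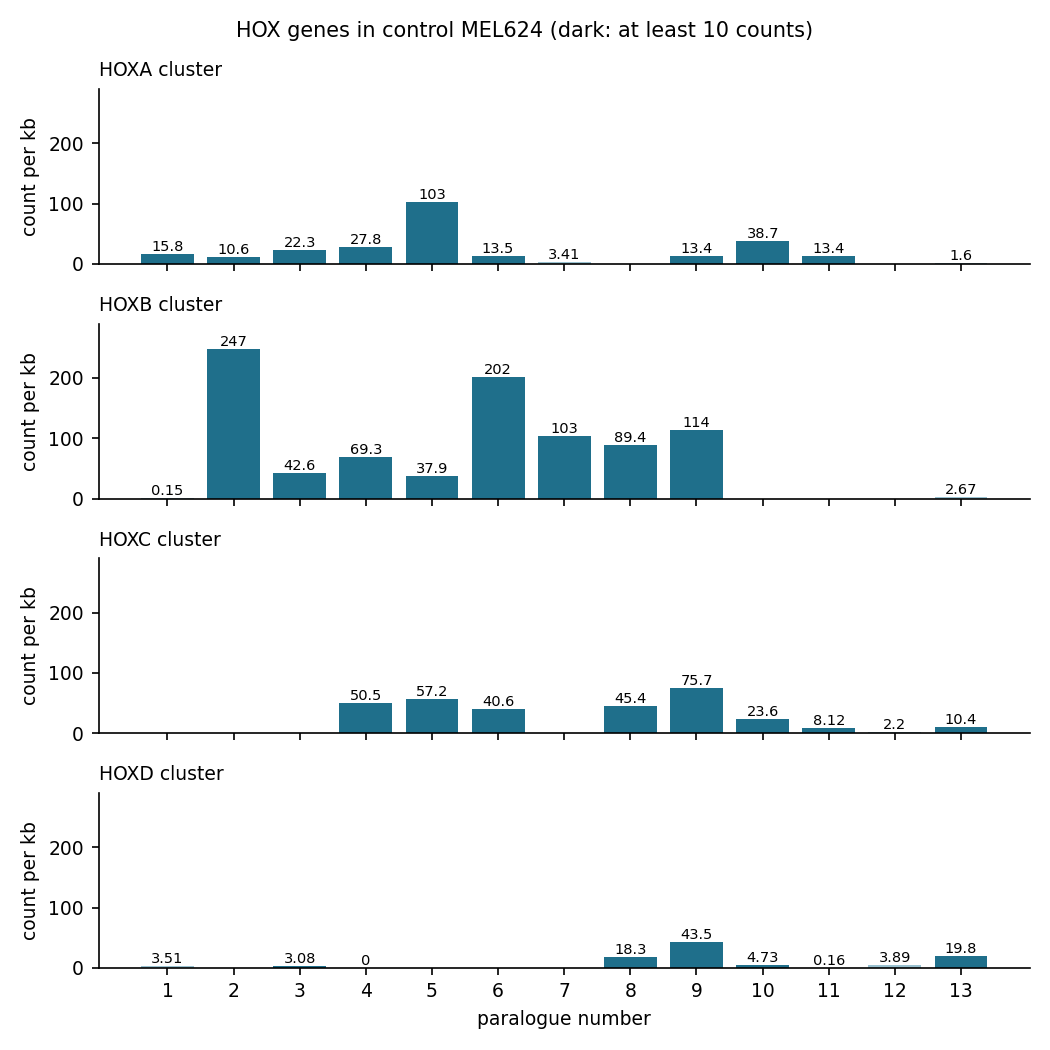
Mean normalized count per kb in control for each HOX gene, in 4 panels by cluster with paralogue number on the horizontal axis; the number above a bar is its value and no bar is drawn where the cluster has no such gene. HOXB2 (247.19) and HOXB6 (201.63) are the highest, and HOXB1 and HOXB13 are near 0.

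Genes under the floor lay together along the chromosomes. The longest run of neighbouring protein-coding genes under the floor was on chromosome 11 (hg38, 48216810 to 57237250), from OR4B1 to APLNR, with 72 genes all listed at 0, of which 63 were olfactory receptors. On chromosome 1 (152153595 to 153460651) RPTN to S100A7 held 49 genes of the skin barrier cluster, 42 of them at 0, with 18 late cornified envelope genes and 11 small proline-rich genes. On chromosome 8 (6808517 to 8031818) XKR5 to FAM90A12P held 40 genes, 39 at 0, with 21 defensins. On chromosome 21 (29536933 to 31038476) GRIK1 to KRTAP19-8 held 36 genes, 35 at 0, with 33 keratin-associated proteins. Runs of 32 genes were found on chromosome 1, OR2T8 to LYPD8 with 31 olfactory receptors, and on chromosome 4, TMPRSS11E to JCHAIN with 10 UDP-glucuronosyltransferases. By chromosome the share of protein-coding genes at the floor was lowest for X (45.7%), 21 (46.8%) and 11 (53.8%), and lay between 59.8% and 69.0% for the others. Without olfactory receptors and keratin-associated proteins it was 60.5% for chromosome 21 and 62.4% for chromosome 11, and 45.8% for X.

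Gene structure went with the values too. Among protein-coding genes at the floor, span was set against merged exon length in GENCODE release 44. The median signal per kb was 41.38 in genes whose span is at most 2.47 times that length. It fell to 18.80 in those whose span is at least 14.26 times that length. Genes of 0.5 to 1 kb had a median of 62.16 per kb and genes over 8 kb 20.74 per kb. The floor is set in counts, so a short gene needs a higher signal per kb to reach it than a long gene. The fall with length is therefore set in part by the floor, and the size of that part was not tested. The 30 genes under 0.5 kb included 25 histone genes. The deposited lengths equal the merged exon length of GENCODE release 44 for 64.4% of identifiers, so intron signal may not be in these values. The counted feature is not stated, and its part in this relation was not tested.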

How the data were processed

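PRO-seq libraries came from 3 control replicates of MEL624. The authors deposited 1 signal per gene and group: per the file header, the mean of normalized counts over replicates divided by gene length in kb. Per the submitters' processing notes, the tools were DESeq2, featureCounts, Bowtie 1.2.2 and cutadapt 1.14, whose roles are unstated. For strand setting and scaling factor the sources used here give nothing. The header has 6 names and rows 5 cells, so cells were addressed by position. The 2 columns of other groups were not used.

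Identifiers were joined to GENCODE release 44, and 582 rows without a match, holding 0.37% of the summed count, were left out. Signal times length in kb gave a mean normalized count, and 10 counts was the floor. Python 3.11.15, pandas 2.3.3 and numpy 2.4.6 were used, and the summaries were tested on simulated data. With 1 mean per group, no spread, interval or test was possible.

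The 37 gene lists and 50 families were chosen with earlier results of these data known, and 3 family patterns were narrowed after values were seen. By rule, the text names the 15 protein-coding genes highest per kb and by count, the 5 highest of each noncoding type, all lineage markers, the longest runs under the floor, and, in each list or family, the 4 highest members, the 2 lowest above 0 and members at 0 where 5 or fewer. Not all of these are reported here, some genes being left out of the text. SOD2 and RNU2-2 had no match. Other floors, length and overlap filters were tried as alternatives.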

Additional observations from a re-analysis of the deposited data

How the results depend on the processing

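The share of genes at the floor was 29.4% and ranged from 20.4% to 40.4% over the alternatives (floors of 5 and 50 counts, 5 per kb, and leaving out overlapping genes, short genes or genes with at least 90% shared exons, the last chosen after seeing the data). For protein-coding genes it was 63.0%, with a range of 51.0% to 66.2%, and the share listed at 0 was 21.0%, with a range of 19.8% to 31.0%, the highest without overlapping genes. Of 87 lists and families, 42 had a larger share at the floor than all protein-coding genes, 40 with 5 per kb and 38 with 50 counts. The side changed with 5 per kb (background 58.5%) for the pigment list at 58.3% and integrins at 53.8%, and with 50 counts (background 51.0%) for the pigment list at 45.8%, the CDKN2A region list at 58.3%, interferon genes at 50.0%, cytokines at 41.7%, HOXA at 27.3%, integrins at 50.0%, frizzled receptors at 50.0% and TRIM genes at 52.2%. Without a change of side, the share moved by over 1.5 times, or to 0, in 12 sets with 5 per kb and 28 with 50 counts, where blood markers fell from 17.4% to 0.0%, muscle from 30.8% to 0.0%, fibroblast from 57.1% to 21.4%, collagens from 38.6% to 22.7% and HOXD from 55.6% to 11.1%. The cause was not tested. No paired analysis was possible because only 1 mean per group was deposited, and for the same reason no replicate could be left out. The depth of single libraries limits low values by an unknown amount.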
